A study of Homo sapiens with 12 samples.

Results

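The large subunit of the cytosolic ribosome is built from ribosomal RNA and many proteins, and 45 of the genes for these proteins (RPL3 to RPL41 and the stalk proteins RPLP0, RPLP1 and RPLP2) were followed across a total RNA sequencing experiment in HCT116, a cell line from a human colorectal carcinoma. The 45 members were the rows of the deposited table whose Ensembl identifier maps to these symbols, 45 of 63241 rows in all, and all 45 passed the filter on low counts. The experiment asked what the loss of RNA polymerase I or II, or a transcription blocker, does in these cells. It held 12 libraries in 4 groups of 3. The control group (ctrl) was wild-type HCT116 given the solvent DMSO for 8 h. The Pol1 group was a POLR1A-AID1 degron line, in which the largest subunit of RNA polymerase I carries a tag that leads to its destruction when a ligand is added. Doxycycline (1 µg/ml) was added 24 h ahead of the ligand, which was 500 µM of the auxin IAA for 8 h. The Pol2 group was a POLR2A-AID2 line, with the tag on the largest subunit of RNA polymerase II, given 1 µM of 5-Ph-IAA for 8 h. The ActD group was wild-type HCT116 with actinomycin D, a DNA-binding blocker of transcription, at 5 µg/mL for 6 h. No degron line without ligand was among the 12 libraries, so the line, the inducer and the ligand cannot be told apart from the depletion itself. The replicates of a group were separate dishes handled on 1 day, which the protocol calls technical, and p-values measure only the spread between such dishes.

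Large-subunit proteins surround the peptidyl transferase centre, shape the tunnel through which the new chain leaves, and form the stalks that handle tRNAs and elongation factors. Ribosomal RNA made by RNA polymerase I and 5S RNA made by RNA polymerase III are joined in the nucleolus with proteins whose mRNAs come from RNA polymerase II. Those mRNAs are abundant and stable, and most begin with a terminal oligopyrimidine tract (TOP), a cytosine followed by a run of C and T, through which the mTOR pathway and the protein LARP1 regulate their translation and stability.

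A start of this kind was common to the members. A promoter sequence was found in RefSeq (GRCh38.p14) for 38 of the 45. Of the 38, 28 (73.7%) had a C at a listed start, followed unbroken by C or T to a run of at least 5. The share was 5.14% of 27305 genes with a promoter sequence. A gene with several listed starts was counted, here and for the features below, if any of them had the feature. The annotated start need not be the one used in these cells, and a shift of a few bases moves a gene out of this count. The letters CCGGAA or TTCCGG, which are each other's reverse complement, occurred between 250 bases before and 50 bases after the start in 20 of the 38 members (52.6%) and in 20.1% of all genes. TATA lay between 40 and 20 bases before the start, on the coding strand, in 15.8% of the members and 7.47% of all genes. CCATNTT or its reverse complement AANATGG occurred in 23.7% and 18.6%. The windows of 12 members whose levels are given by library follow, from 60 bases before to 20 bases after the start, with the unbroken C and T run that opens the transcript in capitals. For a gene with several starts, a start with a tract was picked where it existed, so the windows add no evidence to the count. RPL39 and RPL10 had long runs, RPL41 a run of 5, RPL3 fell just short with 4, RPL15 had a lone T, and RPL10A began with A. The last 3 members therefore stand outside the count of 28.
RPL39 (chrX:119791611-119791690, minus strand): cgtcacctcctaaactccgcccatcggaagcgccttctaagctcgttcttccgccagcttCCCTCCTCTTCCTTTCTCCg
RPL10 (chrX:154398317-154398396, plus strand): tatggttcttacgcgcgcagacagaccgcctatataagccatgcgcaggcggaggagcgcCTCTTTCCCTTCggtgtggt
RPLP0 (chr12:120201092-120201171, minus strand): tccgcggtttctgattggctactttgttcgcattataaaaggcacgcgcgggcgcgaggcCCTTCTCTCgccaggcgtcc
RPLP1 (chr15:69452758-69452837, plus strand): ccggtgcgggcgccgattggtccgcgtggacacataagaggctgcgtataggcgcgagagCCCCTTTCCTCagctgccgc
RPLP2 (chr11:809907-809986, plus strand): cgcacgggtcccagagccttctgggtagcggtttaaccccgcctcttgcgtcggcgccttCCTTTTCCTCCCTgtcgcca
RPL11 (chr1:23691746-23691825, plus strand): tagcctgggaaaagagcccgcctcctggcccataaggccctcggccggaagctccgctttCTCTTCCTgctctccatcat
RPL22 (chr1:6199576-6199655, minus strand): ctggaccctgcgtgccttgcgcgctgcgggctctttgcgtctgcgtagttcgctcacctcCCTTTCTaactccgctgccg
RPL36A (chrX:101390951-101391030, plus strand): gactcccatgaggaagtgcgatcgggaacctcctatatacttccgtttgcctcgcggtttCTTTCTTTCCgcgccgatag
RPL41 (chr12:56116573-56116652, plus strand): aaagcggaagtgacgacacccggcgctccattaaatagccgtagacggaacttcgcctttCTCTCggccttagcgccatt
RPL3 (chr22:39319604-39319683, minus strand): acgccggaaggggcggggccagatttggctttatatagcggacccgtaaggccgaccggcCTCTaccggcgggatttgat
RPL15 (chr3:23916485-23916564, plus strand): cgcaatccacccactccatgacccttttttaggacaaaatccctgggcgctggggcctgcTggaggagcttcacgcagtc
RPL10A (chr6:35468341-35468420, plus strand): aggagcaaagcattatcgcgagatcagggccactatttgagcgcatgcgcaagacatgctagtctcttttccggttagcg

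Total counts ran from 11289272 to 27394059 per library. Within groups the members moved as a block from library to library, when each library was set against the mean log2 level of the others in its group. Control library 1 lay below that mean in 43 of 45 members (median -0.18 on the log2 scale). Pol2 library 2 lay below the mean of the others in 43 (median -0.19), and actinomycin D library 2 in all 45 (median -0.12). Pol1 library 1 was also low, with 2 members above that mean (median -0.13). Among the libraries shifted upward were control library 2 (median 0.14), Pol1 library 3 (0.13), Pol2 library 1 (0.17) and actinomycin D library 3 (0.07). In Pol2 library 2 the 15 members with a coding length under 400 nt were further down (median -0.29) than the rest (median -0.17). The epithelial markers EPCAM, KRT8, KRT18, KRT19 and CDH1 were present in every library, while CEACAM5 and CDX1 were at or near 0, and LUM and CD3E, which mark fibroblasts and T cells, were at or near 0 as well. Summed over 9 epithelial markers the level was 3510 to 3970 CPM (counts per 1000000 of the TMM-scaled library total, the unit of all levels below) in the controls, 1920 to 2060 in Pol1, 2350 to 2560 in Pol2 and 3200 to 3480 in ActD. Most of the sum was KRT8 and KRT18 (means of 1850 and 1040 CPM in the controls), and the markers did not move together. In ctrl, Pol1, Pol2 and ActD, EPCAM had means of 195, 108, 247 and 274 CPM and CDH1 of 85.8, 24.9, 68.1 and 119. In the same order CDX2 had means of 15.6, 11.4, 8.56 and 2.11 CPM, and VIL1 was at 1.02 in the controls. Over 6 fibroblast markers the sum was 7.31 to 8.06 CPM in the controls, 21.6 to 23.0 in Pol1, 13.9 to 18.3 in Pol2 and 10.7 to 12.3 in ActD, nearly all of it COL1A1. Over 6 blood cell markers it was 2.19 to 2.94 CPM in the controls, mostly HBB (2.10 to 2.52), and 8.80 to 10.2 in Pol2, where CD14 reached 3.35 to 4.73. The part of these differences in the results was not tested. In bulk samples of a cultured line, fewer cells holding an RNA cannot be told apart from less of it per cell. POLR1A mRNA was 234, 249 and 230 CPM in the controls and 147, 151 and 145 in Pol1, and POLR2A mRNA was 468, 561 and 514 CPM in the controls and 1090, 1070 and 1110 in Pol2. POLR1A mRNA was also lower in Pol2 (128 to 142 CPM) and POLR2A mRNA also higher in Pol1 (908 to 945 CPM) than in the controls. A degron removes the protein, so these mRNA levels do not check the depletion.

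With POLR1A depleted, most large-subunit mRNAs took a smaller share of the RNA than in the controls. Of the 45 members 34 fell and 0 rose by edgeR's quasi-likelihood test at a Benjamini-Hochberg adjusted p under 0.05, and 44 of the 45 fold changes were below 0. The fitted changes ran from -0.76 for RPL36A to 0.11 for RPL39 on the log2 scale, with a median of -0.37. Over all 23593 genes tested, 18.6% fell and 20.6% rose, and the median was 0.01. At an unadjusted p under 0.05 the counts were 40 lower and 0 higher, and DESeq2 gave 39 and 0. In 36 members every Pol1 library lay below every control, which held for 22.7% of all genes, and in 1, RPL39, every one lay above, which held for 25.3%. The fall was relative to the scaling: when libraries were scaled to the 13 mitochondrial mRNAs, the members' median became -0.01 with 1 member lower (RPL10A) and 1 higher (RPL39), and the median of all genes became 0.37. The mitochondrial mRNAs made up 6.06% to 8.17% of the counts in the controls and 5.58% to 5.98% in Pol1. Scaling moves all genes of a comparison together, so the distance of the members' median from that of all genes (-0.38) does not test the choice of scaling. By role, the medians under mitochondrial scaling lay between -0.33 for the L1 stalk and 0.06 for the P stalk.

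With POLR2A depleted, 34 of the 45 members were not called against the controls. Of the rest 2 rose, RPL15 and RPL39, and 9 fell: RPL8, RPL10, RPL11, RPL17, RPL23, RPL28, RPL34, RPL36A and RPL38. The median change was -0.05, between -0.80 and 0.29. Among all genes tested 33.2% rose and 28.2% fell, and their median was 0.08. In 5 members every POLR2A-depleted library lay below every control and in 3 above, which held for 29.6% and 35.7% of all genes. The counts depended on the scaling: library totals alone gave 15 higher and 5 lower, and scaling to mitochondrial mRNAs 0 higher and 29 lower. The whole table moved with them: the median of all genes became 0.21 with library totals and -0.20 with mitochondrial scaling. The members' median lay at -0.13, -0.13 and -0.15 from that of all genes under the main scaling, library totals and mitochondrial scaling. Without control library 1 there were 0 higher and 16 lower, and without control library 2 there were 1 and 4. With control library 1 and Pol2 library 2 both left out, an alternative chosen after the values were seen, 1 member was higher. RPL28, RPL34 and RPL36A were called lower under every alternative run.

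With actinomycin D nearly the whole family took a larger share of the RNA. Of the 45 members 43 rose and 1, RPL36A, fell, while RPL21 was not called. The median change was 0.60 and the highest was 0.94 for RPL39. Of all genes tested 24.9% rose and 28.5% fell, and their median was -0.06. All 3 treated libraries lay above all 3 controls in 42 members, which held for 27.7% of all genes, and below them in RPL36A, which held for 30.4%. Scaling to mitochondrial mRNAs raised the members' median to 1.52 and that of all genes to 0.82. Mitochondrial mRNAs themselves made up 3.42% to 3.54% of the counts in these libraries, against 6.06% to 8.17% in the controls. The 3 comparisons share the control libraries, so their values are set side by side.

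**Figure D1:**
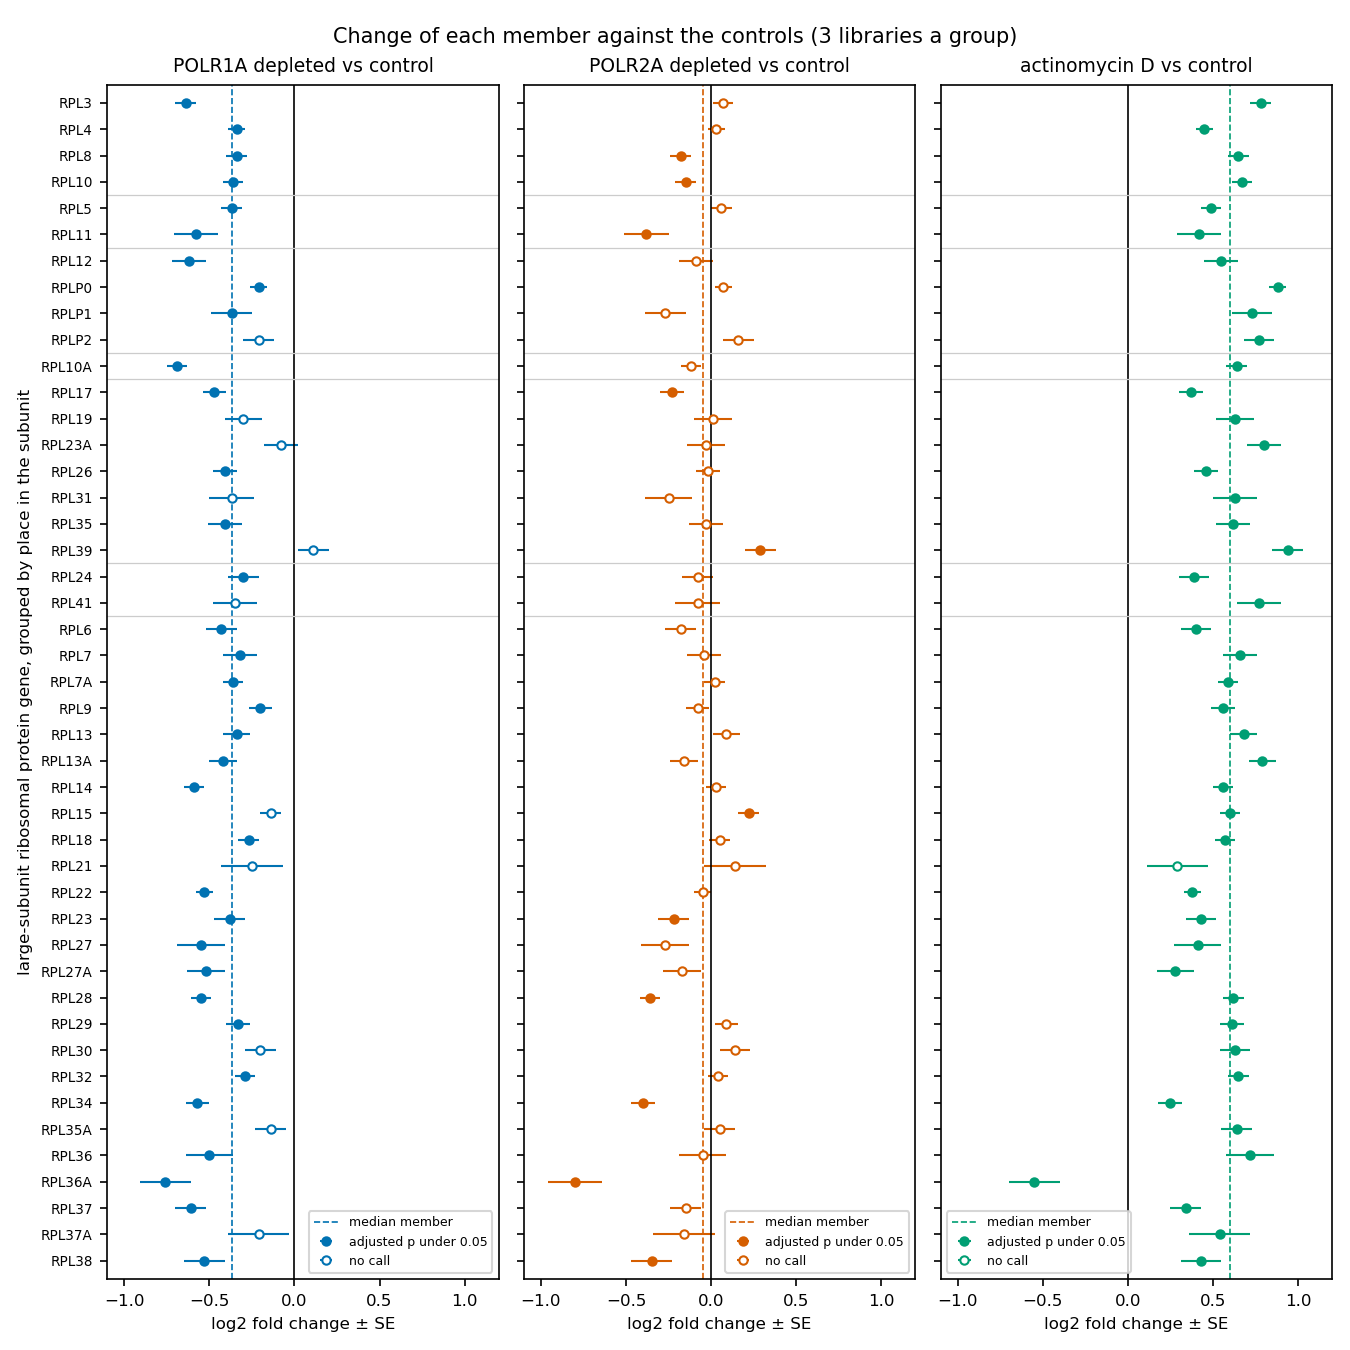
Log2 fold change (± SE of the fit) of each of the 45 members against the 3 controls, with the members grouped by place in the subunit on the vertical axis; filled points passed an adjusted p under 0.05. Points lie mostly left of 0 with POLR1A depleted (median -0.37), around 0 with POLR2A depleted (median -0.05) and right of 0 with actinomycin D (median 0.60), where RPL36A at -0.55 is the exception.

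Among the proteins of the catalytic core and the tRNA path, RPL3, RPL4, RPL8 and RPL10, all 4 fell with POLR1A depleted and all 4 rose with actinomycin D. Such calls were made for 18.6% and 24.9% of all genes tested. RPL3 (chr22:39312882-39320389, minus strand on GRCh38 in GENCODE 29, as for all genes below), whose long extension reaches toward the peptidyl transferase centre, was measured at 933, 1100 and 1010 CPM in the controls, 604, 660 and 690 in Pol1, 1110, 1020 and 1050 in Pol2 and 1750, 1700 and 1770 in ActD. Its POLR1A-depleted libraries lay below all others and its actinomycin D libraries above all others. The log2 changes of RPL3 were -0.64 (SE 0.06, adjusted p = 2.11e-08) in Pol1, 0.07 (SE 0.06, adjusted p = 0.364) in Pol2 and 0.78 (SE 0.06, adjusted p = 3.94e-10) in ActD. RPL10 (chrX:154389955-154409168, plus strand), which joins the subunit late and sits beside the tRNA sites, was measured at 617, 718 and 646 CPM in the controls, 508, 510 and 528 in Pol1, 601, 622 and 557 in Pol2 and 1070, 987 and 1100 in ActD. For RPL10 the POLR2A-depleted and control libraries overlapped, and the other groups stood clear of the controls. Its changes were -0.36 (SE 0.06, adjusted p = 4.43e-05), -0.15 (SE 0.06, adjusted p = 0.0306) and 0.67 (SE 0.06, adjusted p = 3.2e-09) in the same order. The POLR2A-depletion call of RPL10 was lost with DESeq2 (adjusted p = 0.179), its size factors (0.18), library totals (0.656), only the 2 groups compared (0.0887) and the replicate block (0.0505). It was also lost without control library 2 (adjusted p = 0.102) and without Pol2 library 3 (adjusted p = 0.124). RPL4, which lines the exit tunnel, and RPL8, a core protein near the catalytic site, fell by 0.34 each with POLR1A depleted and rose by 0.45 and 0.65 with actinomycin D.

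RPL5 and RPL11 travel with 5S RNA as the 5S particle, which can bind MDM2, a ubiquitin ligase. RPL5 (chr1:92831983-92841924, plus strand) was measured at 458, 526 and 513 CPM in the controls, 360, 392 and 402 in Pol1, 549, 487 and 528 in Pol2 and 721, 677 and 711 in ActD. RPL11 (chr1:23691742-23696835, plus strand) was measured at 317, 406 and 405 CPM in the controls, 218, 259 and 276 in Pol1, 324, 242 and 302 in Pol2 and 509, 498 and 498 in ActD. Both were below every control in each POLR1A-depleted library and above every control in each actinomycin D library. With POLR1A depleted RPL5 fell, at -0.37 (SE 0.06, adjusted p = 2.73e-05), and RPL11 fell, at -0.58 (SE 0.13, adjusted p = 0.00608). With POLR2A depleted the partners' values were 0.06 (SE 0.06, adjusted p = 0.384) for RPL5 and -0.38 (SE 0.13, adjusted p = 0.0322) for RPL11, whose libraries overlapped the controls at 324 against 317 CPM. With actinomycin D RPL5 rose by 0.49 (SE 0.06) and RPL11 by 0.42 (SE 0.13, adjusted p = 0.0239), a call lost on leaving out any of the 3 actinomycin D libraries or control library 1 (adjusted p from 0.0518 to 0.0713). RPL11 also lost its POLR2A-depletion call without control library 2 (adjusted p = 0.1), control library 3 or Pol2 library 2. The same held with DESeq2 size factors (adjusted p = 0.0539) and with only the 2 groups compared (adjusted p = 0.0536).

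The P stalk, which recruits the elongation factors, consists of RPLP0 and dimers of RPLP1 and RPLP2, and RPL12 sits at its base. RPLP0 (chr12:120196686-120201235, minus strand), the scaffold of the stalk, was measured at 1420, 1590 and 1470 CPM in the controls, 1270, 1290 and 1310 in Pol1, 1600, 1560 and 1540 in Pol2 and 2780, 2670 and 2800 in ActD. Its actinomycin D libraries lay far above all others, and its POLR1A-depleted libraries lay below the controls. RPLP0 fell by 0.21 with POLR1A depleted, against 0.07 (SE 0.05, adjusted p = 0.245) with POLR2A depleted and a rise of 0.88 (SE 0.05, adjusted p = 3.09e-12) with actinomycin D. The POLR1A-depletion value turned to 0.14 under scaling to mitochondrial mRNAs. RPLP1 (chr15:69452784-69456194, plus strand) was measured at 446, 542 and 520 CPM in the controls, 342, 409 and 413 in Pol1, 451, 343 and 455 in Pol2 and 855, 829 and 824 in ActD. RPLP2 (chr11:809647-812880, plus strand) was measured at 282, 336 and 313 CPM in the controls, 231, 265 and 307 in Pol1, 351, 342 and 347 in Pol2 and 534, 492 and 565 in ActD. Both proteins of the dimer were highest with actinomycin D, without overlap with any other group. RPLP1 had a log2 fold change of -0.37 (SE 0.12, adjusted p = 0.0283) with POLR1A depleted, a call lost without control library 2 (adjusted p = 0.142), control library 3 or Pol1 library 1, and RPLP2 one of -0.21 (SE 0.09, adjusted p = 0.0845), which missed the threshold. RPLP2 was called there by DESeq2 (adjusted p = 0.0378), with the replicate block (adjusted p = 0.0387), with no filter (adjusted p = 0.00268) and without Pol1 library 3 (adjusted p = 0.00295). With POLR2A depleted their values were -0.27 (SE 0.12, adjusted p = 0.0689) for RPLP1 and 0.16 (SE 0.09, adjusted p = 0.148) for RPLP2, neither of them called by the main test. RPLP1 was called lower there by DESeq2 (adjusted p = 0.0483), with no filter (1.91e-07) and with mitochondrial scaling (6.15e-05). Leaving out control library 1, Pol2 library 1 or Pol2 library 3 gave that call as well. RPLP2 was called higher there with library totals (adjusted p = 0.00646) and with only the 2 groups compared (0.0323). With actinomycin D RPLP1 and RPLP2 rose by 0.73 (SE 0.12) and 0.77 (SE 0.09). RPL12 (chr9:127447674-127451405, minus strand) was measured at 446, 552 and 544 CPM in the controls, 298, 345 and 359 in Pol1, 528, 425 and 499 in Pol2 and 783, 706 and 775 in ActD. Its POLR1A-depleted libraries lay below all others, and it had log2 fold changes of -0.62 (SE 0.1, adjusted p = 0.000483) there, -0.09 (SE 0.1, adjusted p = 0.496) with POLR2A depleted and 0.55 (SE 0.1, adjusted p = 0.000747) with actinomycin D.

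RPL10A (chr6:35468408-35470785, plus strand) forms the mobile L1 stalk, which guides used tRNAs out of the ribosome. It was measured at 380, 432 and 402 CPM in the controls, 241, 256 and 258 in Pol1, 399, 351 and 366 in Pol2 and 635, 590 and 662 in ActD. The POLR1A-depleted libraries were the lowest and the actinomycin D libraries the highest, with no overlap, while the POLR2A-depleted libraries overlapped the controls. RPL10A fell by 0.69 with POLR1A depleted (adjusted p = 5.9e-09), the lowest value after RPL36A, and it was the member still called lower under mitochondrial scaling, at -0.33. Its other changes were -0.12 (SE 0.06, adjusted p = 0.0837) with POLR2A depleted and 0.64 (SE 0.06, adjusted p = 7.62e-09) with actinomycin D.

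Of the 7 proteins around the rim of the exit tunnel, where the new chain meets chaperones and the signal recognition particle, 3 fell with POLR1A depleted and all 7 rose with actinomycin D. The shares over all genes tested were 18.6% and 24.9%. RPL39 (chrX:119786504-119791643, minus strand), a very short protein inside the rim of the tunnel, was measured at 154, 161 and 158 CPM in the controls, 167, 166 and 180 in Pol1, 202, 168 and 208 in Pol2 and 321, 262 and 328 in ActD. All treated libraries lay above all controls. RPL39 had a log2 fold change of 0.11 (SE 0.09, adjusted p = 0.355) with POLR1A depleted, the highest value of the family and no call under the main scaling. It rose by 0.29 (SE 0.09, adjusted p = 0.0127) with POLR2A depleted and by 0.94 (SE 0.09, adjusted p = 4.49e-07) with actinomycin D. The rise with POLR2A depleted was lost when pseudogene counts were added (0.19, adjusted p = 0.161) and without any of the controls or without Pol2 library 1 or 3. RPL23A (chr17:28719393-28724359, plus strand), a docking point for the signal recognition particle, was measured at 315, 392 and 381 CPM in the controls, 298, 350 and 381 in Pol1, 387, 321 and 362 in Pol2 and 645, 599 and 645 in ActD. Its POLR1A-depleted, POLR2A-depleted and control libraries overlapped, and its actinomycin D libraries stood clear of them. RPL23A had log2 fold changes of -0.08 (SE 0.1, adjusted p = 0.602), -0.03 (SE 0.11, adjusted p = 0.855) and 0.8 (SE 0.1, adjusted p = 4.74e-05) in these comparisons. RPL17, RPL26 and RPL35, which also line the rim, fell by 0.47, 0.41 and 0.41 with POLR1A depleted, while RPL19 and RPL31 missed the threshold at -0.30 and -0.37 (adjusted p = 0.0502 and 0.0565).

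The bridges to the small subunit are represented by RPL24 and RPL41. RPL41 (chr12:56116586-56117943, plus strand) encodes a very short, basic peptide and was measured at 551, 660 and 589 CPM in the controls, 423, 474 and 519 in Pol1, 635, 457 and 607 in Pol2 and 1030, 966 and 1070 in ActD. Actinomycin D libraries were clear of all others, POLR1A-depleted libraries lay below the controls, and POLR2A-depleted libraries overlapped both. RPL41 had a log2 fold change of -0.35 (SE 0.13, adjusted p = 0.0551) with POLR1A depleted, which was called by DESeq2 (adjusted p = 0.00293) and not by the main test. It was also called with DESeq2 size factors, library totals, no filter, only the 2 groups compared and without Pol1 library 3. Its values were -0.08 (SE 0.13, adjusted p = 0.596) with POLR2A depleted and 0.77 (SE 0.13, adjusted p = 0.000487) with actinomycin D. RPL24 fell by 0.30 with POLR1A depleted and rose by 0.39 with actinomycin D.

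**Figure D2:**
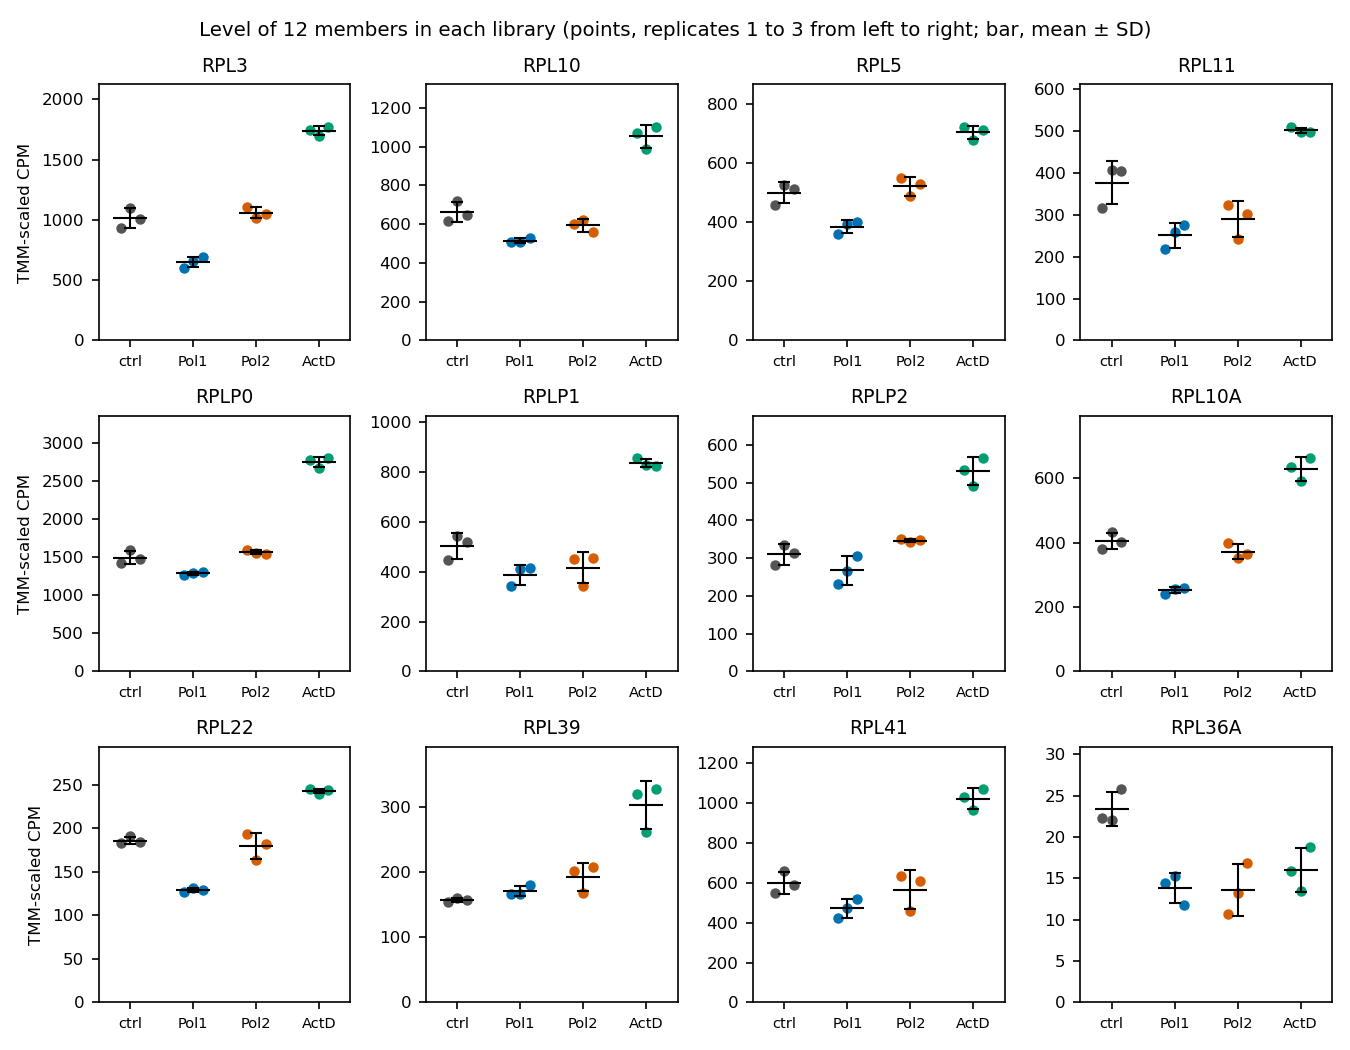
TMM-scaled CPM of 12 members in each of the 12 libraries, on axes that start at 0, with mean ± SD of each group as bars. Actinomycin D libraries are the highest in 11 of the panels, and RPL36A is the panel in which the 3 controls (22.3, 22.1 and 25.8 CPM) lie above every treated library.

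The other 25 members belong to the body of the subunit. With POLR1A depleted 20 of them fell and 0 rose, with a median of -0.38. With POLR2A depleted 1 rose and 5 fell, and with actinomycin D 23 rose and 1 fell. Over all genes tested 18.6% fell and 20.6% rose with POLR1A depleted, 28.2% and 33.2% with POLR2A depleted, and 28.5% and 24.9% with actinomycin D. RPL22 (chr1:6185020-6209389, minus strand), a surface protein with a close paralog, RPL22L1, was measured at 183, 191 and 184 CPM in the controls, 127, 131 and 129 in Pol1, 194, 164 and 182 in Pol2 and 245, 240 and 244 in ActD. The POLR1A-depleted libraries lay close to each other and below all the rest. RPL22 had log2 fold changes of -0.53 (SE 0.05, adjusted p = 6.7e-08), -0.05 (SE 0.05, adjusted p = 0.491) and 0.38 (SE 0.05, adjusted p = 2.77e-06), and 48.9% of the counts of RPL22 and its pseudogenes went to pseudogenes. RPL15 (chr3:23916545-23924374, plus strand), which binds deep in the ribosomal RNA, was measured at 634, 692 and 696 CPM in the controls, 605, 581 and 654 in Pol1, 795, 791 and 761 in Pol2 and 1090, 910 and 1080 in ActD. All its POLR2A-depleted libraries lay above all controls, and it rose by 0.22 (SE 0.06, adjusted p = 0.00638). That call was lost without control library 1 (adjusted p = 0.0631), without Pol2 library 2 and with no filter (adjusted p = 0.152). RPL15 had a log2 fold change of -0.14 (SE 0.06, adjusted p = 0.102) with POLR1A depleted, where the groups overlapped, and by 0.6 (SE 0.06, adjusted p = 5.29e-08) with actinomycin D.

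RPL28 and RPL34, proteins of the subunit body, fell in both depletions. RPL28 (chr19:55385345-55403250, plus strand) was measured at 522, 585 and 551 CPM in the controls, 364, 366 and 406 in Pol1, 465, 420 and 408 in Pol2 and 858, 828 and 854 in ActD. RPL34 (chr4:108620566-108630412, plus strand) was measured at 198, 243 and 217 CPM in the controls, 138, 146 and 158 in Pol1, 174, 163 and 163 in Pol2 and 269, 238 and 278 in ActD. In both genes every depleted library was below every control. RPL28 fell by 0.55 with POLR1A depleted and by 0.36 with POLR2A depleted, and RPL34 fell by 0.57 and by 0.40. With actinomycin D RPL28 rose by 0.62 (SE 0.06), and RPL34 rose by 0.25 (SE 0.07, adjusted p = 0.00701) with libraries that overlapped the controls. RPL27A (chr11:8682411-8714759, plus strand) was measured at 319, 395 and 410 CPM in the controls, 225, 274 and 283 in Pol1, 361, 307 and 333 in Pol2 and 465, 433 and 470 in ActD. It fell by 0.52 with POLR1A depleted. Its actinomycin D change of 0.28 (SE 0.11, adjusted p = 0.0477) lost its call with library totals (adjusted p = 0.108). The call was also lost on leaving out any control or actinomycin D library other than control library 3.

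RPL13A (chr19:49487554-49492308, plus strand), which can leave the ribosome to silence mRNAs of the inflammatory response, was measured at 703, 769 and 716 CPM in the controls, 510, 542 and 584 in Pol1, 721, 571 and 673 in Pol2 and 1290, 1160 and 1330 in ActD. Its actinomycin D libraries were far above the rest, with a rise of 0.79 (SE 0.08, adjusted p = 2.29e-07), and it fell by 0.42 with POLR1A depleted. RPL35A (chr3:197949980-197956610, plus strand), a gene mutated in Diamond-Blackfan anaemia, was measured at 271, 299 and 273 CPM in the controls, 240, 253 and 272 in Pol1, 319, 257 and 293 in Pol2 and 461, 387 and 464 in ActD. The POLR1A-depleted libraries of RPL35A overlapped the controls, at a log2 fold change of -0.14 (SE 0.09, adjusted p = 0.234). RPL30 was measured at 399, 488 and 455 CPM in the controls, 372, 376 and 418 in Pol1, 541, 454 and 489 in Pol2 and 725, 627 and 733 in ActD. RPL30, a body protein with a kink-turn binding fold, had a log2 fold change of 0.14 (SE 0.09, adjusted p = 0.164) with POLR2A depleted, with overlapping groups. RPL21 (chr13:27251309-27256691, plus strand) was measured at 141, 146 and 150 CPM in the controls, 124, 118 and 127 in Pol1, 182, 160 and 140 in Pol2 and 227, 132 and 177 in ActD. Its actinomycin D libraries spread from 132 to 227 CPM and overlapped the controls, at a log2 fold change of 0.29 (SE 0.18, adjusted p = 0.208). Without actinomycin D library 2 RPL21 was called at 0.48, and without library 1 it was at 0.10. Pseudogene rows held 42.6% of the counts of RPL21 and its pseudogenes, and with those added it was called at 0.49 (adjusted p = 0.00124).

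RPL36A (chrX:101390824-101396154, plus strand), which lies near the tRNA exit site, was the exception in the family, and its counts are shared with close copies. It was measured at 22.3, 22.1 and 25.8 CPM in the controls, 14.5, 15.3 and 11.8 in Pol1, 10.7, 13.2 and 16.9 in Pol2 and 15.9, 13.5 and 18.8 in ActD. Every treated library was below every control, and the falls were 0.76, 0.80 and 0.55 in Pol1, Pol2 and ActD (adjusted p = 0.000559, 0.000288 and 0.00488). The table held 52 rows of pseudogenes named from RPL36A, and 86.3% of the counts of the gene and these rows went to the pseudogenes, mainly RPL36AP37. The pseudogenes summed to 76.9, 122 and 109 CPM in the controls, 72.4, 85.2 and 87.5 in Pol1, 95.8, 68.5 and 85.7 in Pol2 and 142, 136 and 133 in ActD. So the pseudogene rows were highest with actinomycin D while the gene itself was below the controls there. With pseudogene counts added to the gene, the changes were -0.41 (adjusted p = 0.0475), -0.39 (adjusted p = 0.0412) and 0.28 (adjusted p = 0.129). Reads shared by the gene and its copies cannot be told apart in these counts, and the actinomycin D direction of RPL36A is uncertain. RPL36AL, a functional paralog, fell by 0.54 with POLR1A depleted and by 0.58 with POLR2A depleted, and was at -0.21 (adjusted p = 0.282) with actinomycin D.

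**Figure D3:**
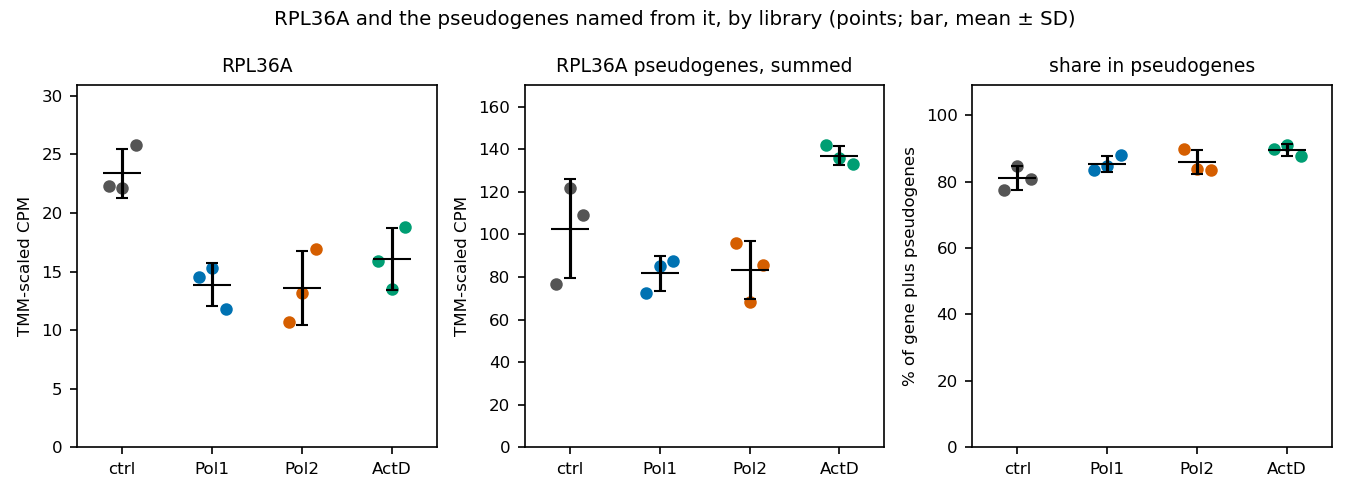
RPL36A, the sum of its 52 pseudogene rows (both in TMM-scaled CPM) and the pseudogenes' share of the combined counts in each library, with mean ± SD. With actinomycin D the gene is lower than in the controls (13.5 to 18.8 against 22.1 to 25.8 CPM) and the pseudogenes are higher (133 to 142 against 76.9 to 122 CPM).

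Pseudogene rows took a smaller share of the combined counts for the other members, though not always fewer counts. Over the family 1085 rows carried the name of a member followed by a pseudogene number, and they took 8.24% of the combined counts. The share was over 10% in 13 members, among them RPL22 (48.9%), RPL21 (42.6%), RPL7 (29.1%), RPL13A (26.3%) and RPL39 (14.3%), and under 1% in 16. Of the 32 members at or below 10%, 25 fell with POLR1A depleted (median -0.36) and 32 rose with actinomycin D (median 0.62). Among all genes tested 18.6% fell and 24.9% rose in these comparisons. Of the members' deposited values only 1.48% were whole numbers. Another gene overlapped 25 of the members, and without a stated strand setting reads of overlapping genes are uncertain too.

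Within the family, some members changed place. Each member was set against the median member of its library, a quantity that does not depend on library scaling. With POLR1A depleted 15 members were below their control place in all 3 libraries and 6 above it (9.7% and 37.3% of all genes). With POLR2A depleted 10 were below and 10 above (24.5% and 35.9% of all genes), and with actinomycin D 15 below and 12 above (56.5% and 5.7%). These comparisons share the controls, so the same control levels enter each value. All genes were set against the same median member, so their shares follow the members' own overall change. They are therefore no background for the counts of members, whose moves above and below their own median largely balance by construction. RPL39 differed from its control place by 0.41, 0.34 and 0.33 on the log2 scale in Pol1, Pol2 and ActD. RPL11 differed by -0.28, -0.32 and -0.19, and RPL34 by -0.27, -0.34 and -0.35. RPL3, by contrast, moved by -0.33 with POLR1A depleted and by 0.13 and 0.17 in the other comparisons, with no overlap in any. RPL10A at -0.38 and RPL12 at -0.32 were below their place with POLR1A depleted and overlapped it in the other comparisons.

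**Figure D4:**
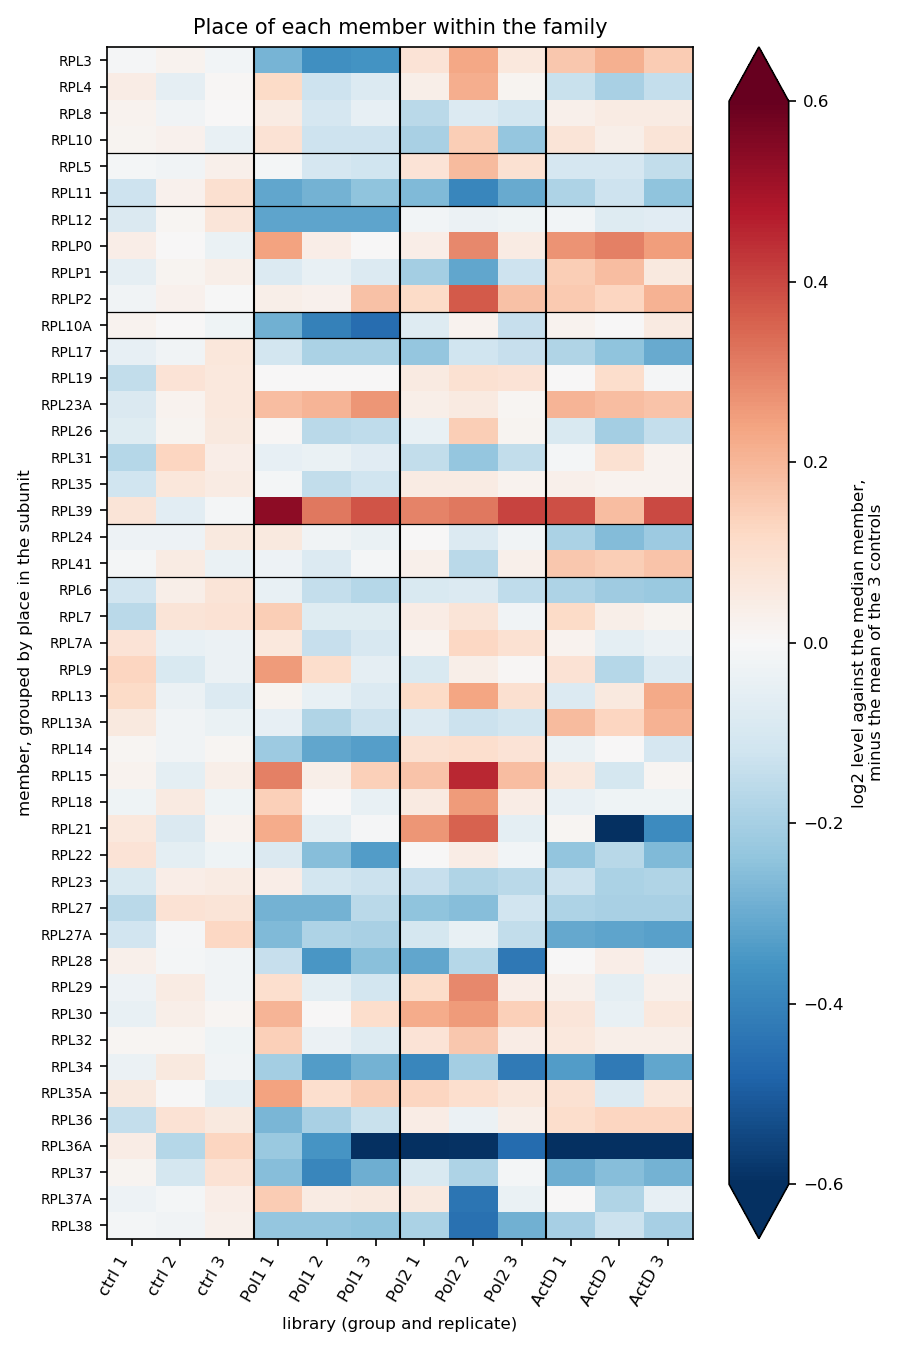
Log2 level of each member against the median member of the same library, minus the mean of the 3 controls, for all 12 libraries; red is above and blue below the control place, and colours stop at 0.6 in either direction. RPL39 is red in all 9 treated libraries, RPL36A and RPL34 are blue in all 9, and RPL3 and RPL10A are blue in the 3 POLR1A-depleted libraries.

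Against the small subunit, the large-subunit mRNAs stood lower in every treated library than in every control. The ratio of the summed counts of the 45 members to those of 32 small-subunit (RPS) genes, which needs no scaling, was 1.49, 1.46 and 1.49 in the controls, 1.35, 1.38 and 1.39 in Pol1, 1.40, 1.34 and 1.38 in Pol2 and 1.42 in all 3 ActD libraries. Each difference from the controls (-0.109, -0.108 and -0.062) had p = 0.1 in a two-sided exact permutation test, the smallest that 3 against 3 libraries allow. The POLR1A-depleted and POLR2A-depleted ratios overlapped. As a share of all counts the members made up 2.07% to 2.20% in the controls, 1.63% to 1.78% in Pol1, 2.18% to 2.32% in Pol2 and 2.87% to 3.11% in ActD. Of all genes tested 18.6% fell with POLR1A depleted, 33.2% rose and 28.2% fell with POLR2A depleted, and 24.9% rose with actinomycin D. The RPS genes fell in 18 of 32 cases with POLR1A depleted (median -0.25), rose in 9 and fell in 1 with POLR2A depleted (median 0.07), and rose in 28 with actinomycin D (median 0.70). Mitochondrial scaling turned their medians to 0.10 and -0.23 in the depletions and left 1.62 with actinomycin D. RPS26, a protein at the mRNA exit, had the lowest POLR1A-depletion value of that list at -0.77, and RPS19, a gene mutated in Diamond-Blackfan anaemia, the highest actinomycin D value at 0.95.

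**Figure D5:**
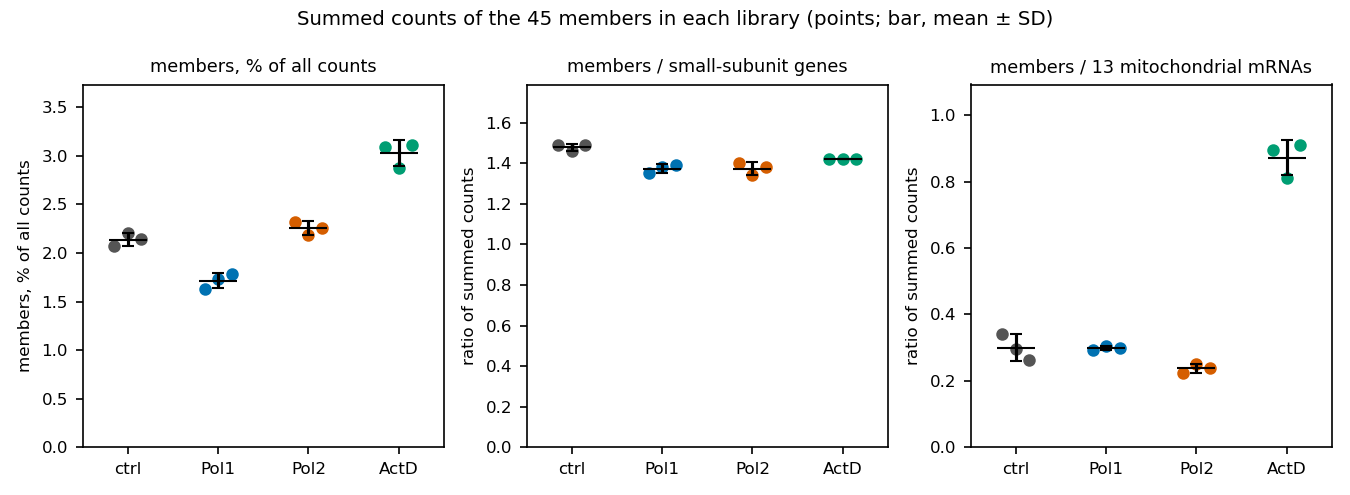
Summed counts of the 45 members in each library as a percentage of all counts, as a ratio to 32 small-subunit genes and as a ratio to the 13 mitochondrial mRNAs, with mean ± SD. The share of all counts is 2.87% to 3.11% with actinomycin D against 2.07% to 2.20% in the controls, the ratio to small-subunit genes is highest in the controls, and the ratio to mitochondrial mRNAs overlaps between the controls and the POLR1A-depleted libraries.

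Between the depletions, 31 members were lower with POLR1A than with POLR2A depleted and 0 were higher (background 33.2% and 29.1%), and the median difference was -0.28. In 29 members the Pol1 libraries all lay below the Pol2 libraries, which held for 36.7% of all genes. At an unadjusted p under 0.05 the counts were the same, and DESeq2 gave 36 and 0. RPL3 at -0.7 (SE 0.06) and RPL14, a body protein, at -0.62 (SE 0.06) differed most. Under mitochondrial scaling the direction turned, with 30 members higher, 0 lower and a median of 0.37, while the median of all genes went from -0.08 to 0.56. The mitochondrial mRNAs used for that scaling made up 5.58% to 5.98% of the counts in Pol1 and 8.68% to 10.4% in Pol2. Actinomycin D against POLR1A depletion gave 44 members higher and 0 lower (background 24.4% and 31.8%) with a median of 0.94, led by RPL3 at 1.42 (SE 0.06) and RPL10A at 1.32 (SE 0.06). Against POLR2A depletion it gave 43 higher and 0 lower (background 31.1% and 39.8%) with a median of 0.63, led by RPLP1 at 1.01 (SE 0.12) and RPL28 at 0.97 (SE 0.06). The counts at an unadjusted p under 0.05 and by DESeq2 were the same in these last comparisons. All actinomycin D libraries lay above all POLR1A-depleted ones in 44 members (28.0% of all genes) and above all POLR2A-depleted ones in 43 (32.5%).

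Assembly factors bind the large subunit while it is built and leave before it works. Over all genes tested 18.6% fell and 20.6% rose with POLR1A depleted, 28.2% and 33.2% with POLR2A depleted, and 28.5% and 24.9% with actinomycin D. Of 45 assembly factors 38 fell and 1 rose with POLR1A depleted (median -0.58), 40 fell and 1 rose with POLR2A depleted (median -0.68), and 27 fell and 8 rose with actinomycin D (median -0.26). Under mitochondrial scaling the medians were -0.22 and -0.97 in the depletions, and the actinomycin D direction turned to 0.65, with 31 higher and 8 lower. The medians of all genes under that scaling were 0.37, -0.20 and 0.82 in Pol1, Pol2 and ActD. NOP16, RRS1 and BOP1, nucleolar factors, were at -1.31, -1.30 and -1.28 with POLR1A depleted. HEATR3, which carries RPL5 into the nucleus, REXO4 and BRIX1 were at -1.61, -1.57 and -1.53 with POLR2A depleted. ZNF622, a late cytoplasmic factor, RRS1 and NOP16 were at -3.00, -2.40 and -2.30 with actinomycin D. Of the paralogs of members, RPL7L1, RPL22L1, RPL26L1 and RPL36AL were tested, and RPL3L, RPL10L and RPL39L did not pass the filter. All 4 fell with POLR1A depleted, with RPL22L1 at -1.23, RPL7L1 at -0.77, RPL36AL at -0.54 and RPL26L1 at -0.42. With POLR2A depleted RPL7L1 fell by 0.86, RPL36AL by 0.58 and RPL22L1 by 0.38, and RPL26L1 was at 0.07 (adjusted p = 0.644). With actinomycin D RPL22L1 rose by 0.40, RPL7L1 fell by 0.19 (0.72 under mitochondrial scaling), and RPL26L1 was at 0.15 (adjusted p = 0.312).

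Other mRNAs known to begin with a terminal oligopyrimidine tract encode elongation and initiation factors, among others. Of 21 such genes 17 fell and 1 rose with POLR1A depleted (median -0.27), 5 rose and 7 fell with POLR2A depleted (median 0.02), and 20 rose and 1 fell with actinomycin D (median 0.54). Mitochondrial scaling moved these medians to 0.09, -0.27 and 1.45. For this list and the regulators below, the shares over all genes tested are the background. They were 18.6% lower and 20.6% higher with POLR1A depleted, 28.2% and 33.2% with POLR2A depleted, and 28.5% and 24.9% with actinomycin D. The largest changes of the 21 genes were those of VIM, an intermediate filament gene, and GAS5, a snoRNA host whose transcript is not translated. VIM was at 2.31 with POLR1A depleted, from a low level (mean 1.02 CPM in the controls and 5.03 in Pol1). GAS5 was at -1.67 with POLR2A depleted and -1.50 with actinomycin D. Among 17 regulators of these mRNAs 7 fell and 2 rose with POLR1A depleted, 9 fell and 2 rose with POLR2A depleted, and 8 rose and 5 fell with actinomycin D, with medians of -0.13, -0.27 and 0.21 that became 0.23, -0.57 and 1.15 under mitochondrial scaling. TSC1, an inhibitor of mTOR, rose by 0.84 and MLST8, an mTOR complex subunit, fell by 0.79 with POLR1A depleted. RPTOR, another subunit of the complex, fell by 1.44 with POLR2A depleted, and LARP4B, an RNA-binding protein, fell by 1.07 with actinomycin D.

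Free RPL5 and RPL11 are known to bind MDM2, and 7 genes around this link or the response to nucleolar stress are given here. With POLR1A depleted CDKN1A, a cell cycle inhibitor, rose by 3.39 and MDM2 by 2.01, and MYC fell by 2.40. MDM4 and RRN3 fell by 0.43 and 0.28 there, HUWE1 rose by 0.25, and CDKN2A was at -0.01 (adjusted p = 0.943). Mitochondrial scaling turned RRN3 to 0.08 there. With POLR2A depleted CDKN1A rose by 1.44 and CDKN2A by 0.35, MYC fell by 3.17, MDM4 by 1.70 and RRN3 by 0.38, and MDM2 was at 0.06 (adjusted p = 0.317) and HUWE1 at -0.04 (adjusted p = 0.477). With actinomycin D CDKN2A rose by 0.73, HUWE1 by 0.53, CDKN1A by 0.43 and MDM4 by 0.13. MYC fell by 5.94 and MDM2 by 0.21 (0.71 under mitochondrial scaling) in those libraries, and RRN3 was at -0.13 (adjusted p = 0.0621).

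Features that the choice of members did not use were compared within the family. The 18 members that have a small nucleolar RNA gene within their bounds (39 such RNA genes in all) had medians of -0.36 in Pol1, 0.02 in Pol2 and 0.61 in ActD, and the 27 without had -0.37, -0.08 and 0.60. The 28 members with a tract at a listed RefSeq start had -0.37, -0.06 and 0.60, and the 10 without had -0.38, -0.04 and 0.58. Against log2 coding length the log2 changes had a Pearson's r of -0.12 in Pol1, 0.16 in Pol2 and 0.03 in ActD over the 45 members, which share their libraries. The difference between the depletions, POLR1A minus POLR2A, had r = -0.34 (rho = -0.33). In Pol2 library 2 the deviation from its group had r = 0.50 with log2 coding length (rho = 0.47) over the same members.

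Levels of different members were compared per kilobase, and their order depended on the length used. Per kilobase of coding sequence RPL41 was first in the controls at 8000 ± 738 CPM (SD, n = 3), followed by RPLP0 at 1570 ± 91.9, RPLP1 at 1470 ± 147 and RPL37A at 1430 ± 118, which did not differ from each other beyond their spread. The coding part of RPL41 is 75 nt of a 469 nt mRNA. Per kilobase of the annotated mRNA RPL41 was at 1280 ± 118 CPM, RPL13 at 1240 ± 54.8 and RPLP0 at 1230 ± 71.7, and these did not differ beyond their spread, while RPLP1 was at 420 ± 42.0. Per mRNA kilobase RPL3 was at 703 ± 58.0, RPL5 at 485 ± 35.1 and RPL11 at 370 ± 50.2. Per coding kilobase the order of RPL5 and RPL11 turned, with RPL3 at 839 ± 69.1, RPL11 at 704 ± 95.7 and RPL5 at 560 ± 40.5. The annotated mRNA is itself long for RPL37, at 7686 nt, which was last at 25.8 ± 1.77. RPL36A was last per coding kilobase at 73.6 ± 6.54 and at 54.5 ± 4.85 per mRNA kilobase, and adding the counts of its pseudogenes brought it to 294 ± 55.2 on the latter scale. Its place therefore depended on where those reads were counted. With actinomycin D RPL41 stood at 2180 ± 112 and RPLP0 at 2260 ± 57.5 CPM per mRNA kilobase, and with POLR1A depleted at 1010 ± 102 and 1060 ± 16.4.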

How the data were processed

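The deposited table held estimated counts per gene, which the authors made from the reads before deposit, for 63241 Ensembl genes in 12 libraries of total RNA. Trim Galore 0.6.10, STAR, RSEM 1.3.3 and HTSeq 2.0.2 are among the tools listed in the submitters' processing notes. The sources used here do not give which of them made these counts, the annotation release or the strand setting. Values were rounded to whole numbers before testing. Positions and transcripts came from GENCODE 29 on GRCh38, which matched 58228 of the identifiers. The symbols that defined members, lists and pseudogene rows came from a separate gene name reference, which gave 42338 symbols. The main test was edgeR 4.0.16's quasi-likelihood test (R 4.3.3) with TMM scaling, the default filter on low counts and 1 fit over all 4 groups (8 residual degrees of freedom), which left 23593 genes. P-values were adjusted by Benjamini-Hochberg over all of them and called under 0.05. CPM are counts per 1000000 of the TMM-scaled library total, computed with edgeR. The script was tested on simulated data.

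Alternatives were DESeq2 1.42.0, its size factors, library totals, scaling to 13 mitochondrial mRNAs, no filter, only the 2 groups compared, a replicate block, pseudogene counts added to their parent gene, and each library left out. Leaving out control library 1 and Pol2 library 2 together was chosen after seeing the data. The members and gene lists were chosen with earlier results of these data known. Levels by library are given for RPL5, RPL10, RPL10A, RPL11, RPL22, RPL41, RPLP0, RPLP1, RPLP2 and, in each comparison with the controls, the 4 highest and 4 lowest changes. From other lists up to 3 genes with the largest called change were named, and every gene of lists of 10 or fewer, except that some genes of these lists are not reported here. Libraries of a group differed by more than sampling noise (chi-square per degree of freedom 3.52 to 9.37), so none was treated as a duplicate. The titles give 6 h for actinomycin D and 8 h for the other groups, while the harvest text of the labels gives 6 h.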

Additional observations from a re-analysis of the deposited data

How the results depend on the processing

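Counts of calls and some directions depended on the scaling. With mitochondrial scaling 1 member was higher and 1 lower with POLR1A depleted (median -0.01), 0 higher and 29 lower with POLR2A depleted (median -0.35), and 0 lower with actinomycin D (median 1.52). POLR1A against POLR2A depletion then gave 30 higher, 0 lower and a median of 0.37, and actinomycin D gave medians of 1.51 and 1.85 against the depletions. The medians of all genes moved too, to 0.37, -0.20 and 0.82 against the controls in Pol1, Pol2 and ActD. They moved to 0.56 between the depletions, and to 0.41 and 1.02 for actinomycin D against Pol1 and Pol2. Under that scaling RPL36A turned to 0.38 with actinomycin D, RPLP0 to 0.14 with POLR1A depleted, and RPL15 to -0.07 and RPL39 to -0.02 with POLR2A depleted. Between the depletions it turned RPL10 to 0.44, RPL10A to 0.09, RPL11 to 0.45, RPL22 to 0.17, RPL41 to 0.40, RPL5 to 0.21, RPLP0 to 0.37, RPLP1 to 0.56 and RPLP2 to 0.27. With POLR2A depleted, library totals gave 15 higher and 5 lower (median 0.07, and 0.21 over all genes). In that comparison no filter gave 1 and 20, DESeq2 size factors 3 lower, and only the 2 groups 4 lower. Leaving out control library 1 and Pol2 library 2 together gave 1 higher there. Actinomycin D against POLR2A depletion had a median of 0.39 with library totals and 0.83 with no filter. With pseudogene counts added 0 members were lower with actinomycin D and RPL36A was at 0.28. Beyond these scalings and filters, the cause was not tested.

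Leaving out 1 library at a time gave 28 (without control library 2) to 36 lower with POLR1A depleted, 0 to 1 higher and 4 to 16 lower with POLR2A depleted, and 38 to 42 higher with actinomycin D. Between the depletions it gave 21 (without Pol1 library 1) to 40 (without Pol2 library 2) lower. The replicate numbers did not pair the samples, since same-numbered libraries had correlations from -0.17 to 0.13. With a replicate block 36 members were lower with POLR1A depleted, 2 higher and 7 lower with POLR2A depleted, 43 higher and 1 lower with actinomycin D, and 31 lower between the depletions. Totals as low as 11289272 counts limit the precision for low members such as RPL36A, and 3 dishes per group limit all tests.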
